A study of Mus musculus with 2 samples.

Results

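Of the 19505 genes that could be named on the arrays, 10 encode the ETS transcription factors of lymphocytes described here. They were chosen by gene symbol from a fixed list, namely Spi1, Spib, Etv5, Etv6, Ets1, Ets2, Elf1, Elf4, Fli1 and Gabpa. The platform annotation gave each of the 10 genes a single probe set. Total RNA of mouse CD8 T cells from spleen and lymph node was measured on 1 Affymetrix array of Tc9 cells and 1 array of Tc1 cells. The submitters looked for genes expressed more highly in Tc9 cells.

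Tc9 cells are CD8 T cells that were polarized in culture toward production of interleukin 9. They were polarized with IL-4 at 10 ng/mL, TGF-beta at 1 ng/mL and the interferon gamma antibody XMG1.2 at 20 µg/mL. Tc1 cells, the interferon gamma type of CD8 T cell, were polarized with 10 ng/mL recombinant human IL-2. Cells of both groups were primed through CD3 and CD28, polarized for 3 days, and then moved to standard medium with 10 ng/mL IL-2 for 2 further days, to day 5. The sources used here give no strain, age, sex or number of mice per array. The title and description of the second array call it Tc9, whereas its source name calls it Tc1, and it was taken as Tc9 from the title.

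ETS factors share a winged helix-turn-helix DNA-binding domain that reads a GGAA core, and they differ in the flanking bases they prefer and in the partners they bind. PU.1, the product of Spi1, is known for directing myeloid and B cell development, is silenced in most developing T cells, and is switched on again in IL-9-producing helper T cells, where it binds the Il9 locus. Etv5 has likewise been tied to Il9 transcription in helper T cells, and Ets1, Elf1, Fli1 and Gabpa are abundant factors of resting and activated T cells.

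The largest differences among the 10 genes lay in Ets1, with a higher signal on the Tc9 array, and in Spi1, with a lower one. Both stayed under 2-fold. Ets1 had a signal of 3710 in Tc9 cells, against 2006 in Tc1 cells, a log2 difference (Tc9 minus Tc1) of 0.89 or 1.85-fold. Spi1 had a signal of 765 in Tc9 cells, against 1225 in Tc1 cells, a log2 difference of -0.68 or 1.60-fold lower. Of the other 8 genes Spib differed most, being 1.35-fold lower, and Fli1 and Ets2 had nearly equal signals on both arrays.

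With 1 array per group, no difference here has a replicate check and none was tested. Detectable genes are those whose signal on at least 1 array was no lower than 6.43 on the log2 scale, the median over all genes and both arrays, and 10147 genes were detectable. Of the 10 ETS genes, none was higher in Tc9 cells by 2-fold or more, where 2.62% of detectable genes were, and none was lower by as much, where 2.79% were. At 1.5-fold, 1 of the 10 was higher in Tc9 cells, Ets1, beside 7.80% of detectable genes, and 1 was lower, Spi1, beside 6.78%. A count of 1 among 10 genes is near these background shares. The median log2 difference of the 10 was 0.06, against 0.05 over all detectable genes, and 7 of the 10 had a positive difference, against 56.3% of detectable genes, with Ets2 and Fli1 among the 7 at 0.01 and under.

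All 10 genes lay above the detection threshold on both arrays, as the plot of their signals shows. Spib was the closest to it, and it alone lay below the 95th percentile of the negative control probe sets, a log2 signal of 7.16, on both arrays. As a scale for the differences, the central 95% of the 1158 positive control probe sets that reached the threshold ran from -0.59 to 0.86 on the log2 scale. Ets1 and Spi1 lie just beyond that range and the other 8 genes within it. For the 585 negative controls that reached the threshold, the same range ran from -1.60 to 1.13, and all 10 genes lie within it. Controls and genes were not matched on brightness or probe number.

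**Figure D1:**
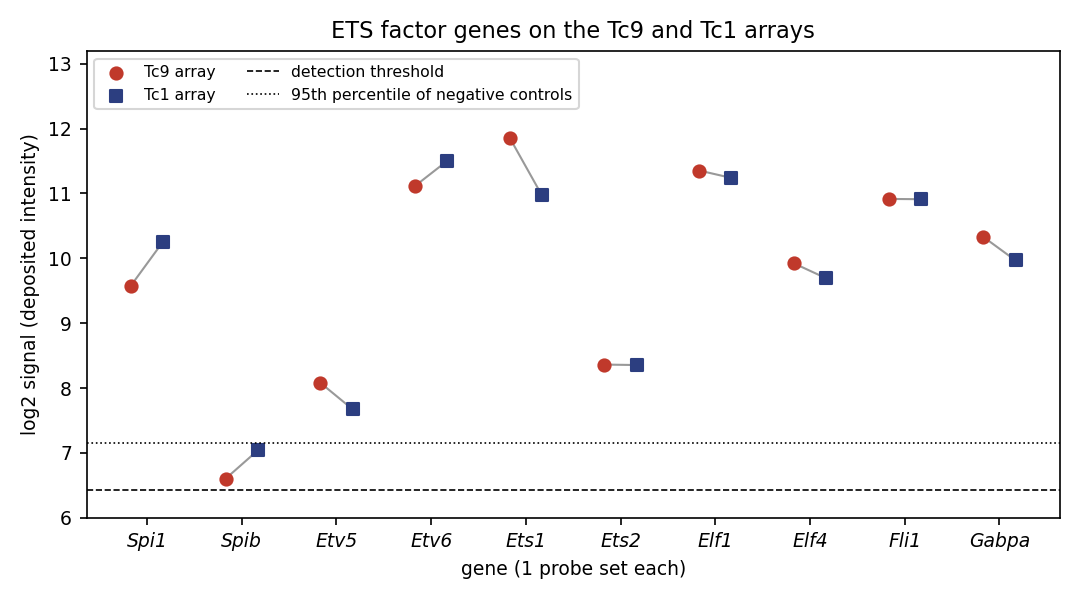
Log2 signal (deposited intensity) of the 10 ETS factor genes on the Tc9 array (circles) and the Tc1 array (squares), with the detection threshold of 6.43 (dashed) and the 95th percentile of negative controls, 7.16 (dotted). Lines join the 2 arrays of a gene. Ets1 stands at 11.86 in Tc9 cells, against 10.97 in Tc1 cells, and Spi1 at 9.58 in Tc9 cells, against 10.26 in Tc1 cells. Heights of different genes are not comparable, since each has its own probes.

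PU.1 and its relative Spi-B belong to the SPI subfamily and bind purine-rich sites, at some of them together with IRF4 or IRF8. Spi1 had a log2 signal of 9.58 in Tc9 cells, against 10.26 in Tc1 cells. Of the detectable genes, 11.1% differed by at least as much in either direction. Spib had a log2 signal of 6.60 in Tc9 cells, against 7.04 in Tc1 cells, a difference of -0.44, and 23.8% of detectable genes differed by at least as much. Both detectable SPI genes were lower on the Tc9 array. The third member, Spic, a factor of red pulp macrophages, was below the threshold on both arrays.

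B cells and myeloid cells express Spi1 as well, and B cells express Spib. In RNA of whole cultures, fewer cells of a type and less RNA per cell cannot be told apart. Of 10 measured B cell markers, 9 were detectable, with a median log2 difference of -0.42. Of these 9, 8 had lower signals in Tc9 cells, beside 4432 of all 10147 detectable genes. Among the 8 was Ebf1 at -0.01, whose sign turned after median centring. Fcrla, also among the 8, and Vpreb3, the higher gene, lay below the 95th percentile of negative controls on both arrays. Ms4a1 and Blnk lay below it on the Tc9 array. The summed signal of the 9 was 3067 in Tc9 cells, against 4374 in Tc1 cells. Cd79a, a signalling chain of the B cell receptor, had a signal of 821 in Tc9 cells, against 1608 in Tc1 cells. Pax5, the factor that fixes B cell identity, had a log2 signal of 7.58 in Tc9 cells, against 7.81 in Tc1 cells. Of 9 measured monocyte and macrophage markers, 4 were detectable, with a summed signal of 804 in Tc9 cells, against 885 in Tc1 cells. All 4, namely Lyz2, Fcgr1, Fcgr3 and Itgam, are also on the list of PU.1 targets below, so the 2 lists overlap. Fcgr1 and Itgam lay below the 95th percentile of negative controls on both arrays. These 4 did not differ the same way, since Lyz2 had a signal of 443 in Tc9 cells, against 329 in Tc1 cells, and Fcgr3 had a signal of 186 in Tc9 cells, against 341 in Tc1 cells. Csf1r, Adgre1 and Cd14, which mark those cells, were below the threshold on both arrays. Outside the marker list, Chil3, Ccl24 and Arg1, genes of IL-4-activated macrophages, were higher in Tc9 cells, with log2 differences of 5.70, 3.25 and 2.63. Acod1 and Clec4e, which macrophages also express, were lower, at -1.24 and -2.10. Each of these genes was below the threshold on 1 array, so the differences are as measured. Not every gene known from IL-4-activated macrophages was higher, since Ccl22 differed by -0.39 and Clec10a by -0.10. Mrc1, a gene of the marker list, was below the threshold on both arrays, at 33.2 in Tc9 cells, against 11.8 in Tc1 cells. Of 10 measured dendritic cell markers 4 were detectable, and they too went both ways, with a summed signal of 2409 in Tc9 cells, against 3127 in Tc1 cells. H2-Aa, an MHC class II chain that B cells also express, had a signal of 1643 in Tc9 cells, against 2199 in Tc1 cells, and Batf3 one of 483 in Tc9 cells, against 739 in Tc1 cells. Ccl17, a chemokine, was below the threshold on the Tc1 array and at least 2.73-fold higher in Tc9 cells, which falls to 1.65-fold at the 95th percentile of negative controls. Zbtb46, a factor of classical dendritic cells, was below the threshold on the Tc9 array and at least 1.33-fold lower there. Of 7 measured neutrophil markers 1 was detectable, Elane, which was below the threshold on the Tc9 array and below the 95th percentile of negative controls on both. Of the neutrophil markers below the threshold on both arrays, S100a8, S100a9 and Ngp had higher signals in Tc9 cells. Csf3r, Mpo and Camp had lower ones. The part of other cells in the Spi1 and Spib signals was not tested. T cell markers were bright on both arrays, with 8 of 8 measured genes detectable and a median log2 difference of -0.23. Of these 8, 7 had lower signals in Tc9 cells, so lower signals were not particular to the B cell markers. The summed signal of the 8 was 25701 in Tc9 cells, against 29004 in Tc1 cells. Cd8a had a log2 signal of 11.93 in Tc9 cells, against 12.19 in Tc1 cells.

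Genes that PU.1 is known to drive in myeloid cells had mostly lower signals on the Tc9 array. Of 17 measured genes, 12 were detectable, with a median log2 difference of -0.33. Of these 12, 9 had lower signals in Tc9 cells and 3 higher, beside 4432 lower among all 10147 detectable genes. Ncf4 turned sign under 2 of the 5 other treatments of the signals. Itgam and Fcgr1, among the 9, lay below the 95th percentile of negative controls on both arrays. At 2-fold, 2 were lower, beside 2.79% of detectable genes, and none was higher, beside 2.62%. Whether PU.1 accounts for these differences was not tested. Cybb, the catalytic subunit of the phagocyte oxidase, had a signal of 184 in Tc9 cells, against 699 in Tc1 cells, which is 3.80-fold lower. Ncf1, the cytosolic organizer of the same oxidase, had a signal of 1202 in Tc9 cells, against 3087 in Tc1 cells, 2.57-fold lower. Ncf4, another cytosolic subunit, differed by 0.04 on the log2 scale, and Cyba, the partner chain of Cybb in the membrane, by -0.31. Fcgr3, a low-affinity IgG receptor, was 1.83-fold lower and Lyz2, lysozyme, 1.35-fold higher.

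Etv5, of the PEA3 subfamily and tied to IL-9 like PU.1, differed in the opposite direction to Spi1. Its signal was 271 in Tc9 cells, against 204 in Tc1 cells, a log2 difference of 0.41 or 1.33-fold. Of the detectable genes, 26.5% differed by at least as much. Etv4, the other detectable gene of that subfamily, had a log2 signal of 6.93 in Tc9 cells, against 7.40 in Tc1 cells, a difference of -0.48. Its Tc9 signal lay below the 95th percentile of negative controls. The third PEA3 gene, Etv1, did not reach the threshold on either array. The 2 detectable PEA3 genes differed in opposite directions, by less than 2-fold each.

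Ets1, known for roles in T cell survival and effector cytokine expression, had a log2 signal of 11.86 in Tc9 cells, against 10.97 in Tc1 cells, and 6.68% of detectable genes differed by at least as much. Its paralog Ets2, a target of MAP kinase signalling, had a signal of 329 in Tc9 cells, against 327 in Tc1 cells. Fli1, a factor of the ERG subfamily that acts in blood stem cells and T cells, had a signal of 1932 in Tc9 cells, against 1926 in Tc1 cells. Hardly any detectable gene differed less than these, since 98.3% differed by at least as much as Ets2 and 99.1% by at least as much as Fli1. Their sign has no meaning, as it turned for both under 2 of the 5 other treatments.

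Erg, the closest relative of Fli1, differed most among the 18 detectable ETS genes. It had a signal of 493 in Tc9 cells, against 105 in Tc1 cells, a log2 difference of 2.24 or 4.71-fold. Only 1.05% of detectable genes differed by at least as much. Its signal on the Tc1 array, 6.71 on the log2 scale, exceeded the detection threshold but not the 95th percentile of negative controls, whereas on the Tc9 array it was 8.95. With the Tc1 value raised to that percentile the fold is 3.45. Erg is best known from endothelial and blood stem cells and from early T cell precursors.

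These 4 genes sit in 2 pairs of neighbours, as placed in the GRCm38.p6 RefSeq table. Ets1 and Fli1 adjoin on chromosome 9, and Erg and Ets2 adjoin on chromosome 16, with 0 protein-coding genes between the genes of either pair. In each pair 1 gene was higher on the Tc9 array and its neighbour was level, Ets1 beside Fli1 and Erg beside Ets2. One is an ETS and the other an ERG subfamily gene, so the higher gene is of a different subfamily in each pair. The coding genes on the outer sides of the pairs are the potassium channel genes Kcnj1 and Kcnj15, each below the threshold on both arrays, Kirrel3, also below it, and Psmg1, a proteasome assembly gene with a log2 difference of 0.25.

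**Figure D2:**
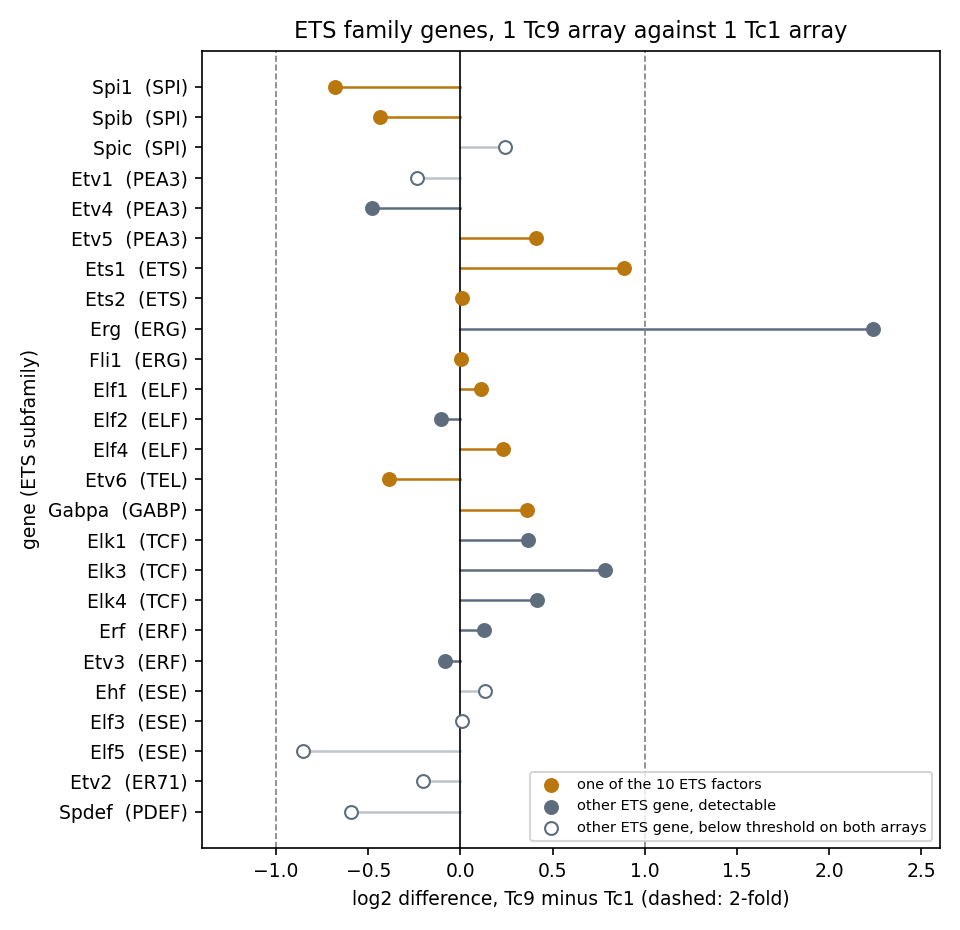
Log2 difference, Tc9 minus Tc1, of the 25 measured ETS family genes, grouped by subfamily, with the 10 ETS factors in ochre, other ETS genes in grey, and genes below the threshold on both arrays as open circles. Dashed lines mark 2-fold. Erg, at 2.24, is the only one past the line, followed among the detectable genes by Ets1 at 0.89 and Elk3 at 0.78.

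The ELF subfamily varied little. Elf1, which acts in T and B cells, had a signal of 2617 in Tc9 cells, against 2418 in Tc1 cells, a log2 difference of 0.11. Elf4, a factor that restrains proliferation of CD8 T cells and activates the perforin gene in natural killer cells, had a signal of 971 in Tc9 cells, against 828 in Tc1 cells, a difference of 0.23. The related Elf2 differed by -0.11. Prf1, the perforin gene, had a signal of 139 in Tc9 cells, against 336 in Tc1 cells. It was 2.41-fold lower, or 2.35-fold with its Tc9 value raised to the 95th percentile of negative controls, where Elf4 was 1.17-fold higher. Klf2, a quiescence factor known as a target of Elf4, had a log2 difference of 0.55. Klf4, another known target, was below the threshold on both arrays, with a difference of -0.17.

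Etv6, also called TEL, is a repressor of the family that forms polymers through its pointed domain. It had a signal of 2219 in Tc9 cells, against 2902 in Tc1 cells, a log2 difference of -0.39 or 1.31-fold lower, and 28.5% of detectable genes differed by at least as much. Gabpa, the DNA-binding subunit of the GABP complex, which is known for genes of mitochondria and cell growth and for Il7r, had a signal of 1288 in Tc9 cells, against 1001 in Tc1 cells. Its log2 difference was 0.36 or 1.29-fold. Its partner genes Gabpb1 and Gabpb2 had log2 differences of 0.11 and 0.49. Il7r, the IL-7 receptor chain, had a log2 signal of 9.90 in Tc9 cells, against 10.20 in Tc1 cells, a difference of -0.30.

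Outside the list of 10, 15 of 16 further ETS genes were measured and 8 of them were detectable. Of these 8, Erg was over 2-fold higher, beside 2.62% of detectable genes, and none was 2-fold lower, beside 2.79%. The median log2 difference of the 8 was 0.25. The ternary complex factors Elk1, Elk3 and Elk4, which work with serum response factor, all had higher signals in Tc9 cells, with log2 differences of 0.37, 0.78 and 0.41. Elk3, the largest of these, had a signal of 1386 in Tc9 cells, against 805 in Tc1 cells. Srf itself differed by 0.23. The repressors Erf and Etv3 differed by 0.13 and -0.08. The epithelial ETS genes Elf3, Elf5, Ehf and Spdef and the vascular factor Etv2 were below the threshold on both arrays.

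**Figure D3:**
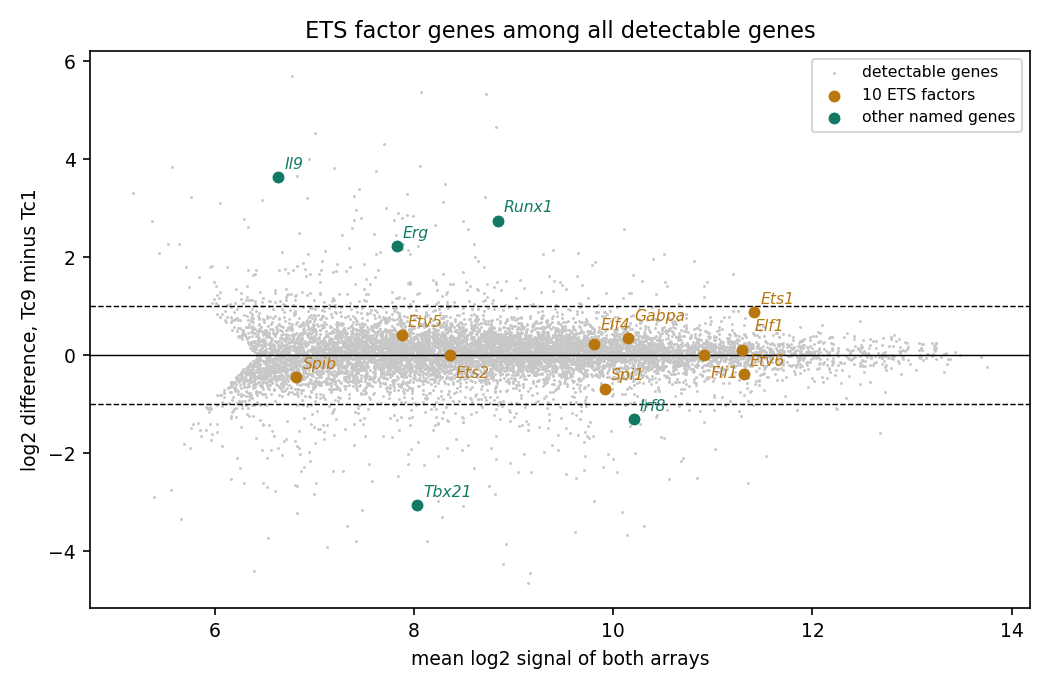
Log2 difference, Tc9 minus Tc1, against the mean log2 signal of both arrays for the 10147 detectable genes (grey), with the 10 ETS factors in ochre and Erg, Runx1, Il9, Tbx21 and Irf8 in green. Dashed lines mark 2-fold. All 10 ETS factors sit between the lines, between -0.68 and 0.89.

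Among the partners of ETS factors, Runx1, Irf8 and Jun differed by over 2-fold. Of 12 detectable partner genes, 1 had a signal over 2-fold higher in Tc9 cells, beside 2.62% of detectable genes. Another 2 had signals over 2-fold lower, beside 2.79%. The median log2 difference of the 12 was 0.10. Runx1, which binds DNA together with Ets1, had a signal of 1190 in Tc9 cells, against 177 in Tc1 cells, 6.73-fold higher. Its relative Runx3, the RUNX factor of CD8 lineage choice, had a log2 signal of 11.21 in Tc9 cells, against 11.71 in Tc1 cells, and their shared partner Cbfb differed by 0.38. Irf8, a partner of PU.1 that interferon gamma induces, had a signal of 754 in Tc9 cells, against 1853 in Tc1 cells, 2.46-fold lower. Irf4, the other IRF partner of PU.1, had a log2 signal of 11.66 in Tc9 cells, against 11.63 in Tc1 cells. Jun, an AP-1 subunit that pairs with ETS factors at composite sites, was 2.39-fold lower, with a signal of 332 in Tc9 cells, against 793 in Tc1 cells.

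Il9, for which PU.1 and Etv5 are known in helper T cells, had a signal of 351 in Tc9 cells, against 28.2 in Tc1 cells, which is below the threshold, so that it was at least 4.07-fold higher, or 2.46-fold against the 95th percentile of negative controls. The IL-9 list of 21 genes holds Il9 itself, the gene whose product Tc9 cells were polarized to make, beside its regulators. Of the 21, 20 were detectable, with a median log2 difference of 0.14. By 2-fold or more, 0 were lower, beside 2.79% of detectable genes, and 3 were higher, beside 2.62%. Besides Il9 these were Tgfbr1, a TGF-beta receptor, 4.71-fold, or 4.01-fold with its Tc1 signal raised to that percentile, and Batf, an AP-1 family factor that acts with IRF4, 2.43-fold. Kat2a, the acetyltransferase Gcn5 that PU.1 recruits to the Il9 locus in helper T cells, had a log2 signal of 9.47 in Tc9 cells, against 9.57 in Tc1 cells. Stat6, which transmits the IL-4 signal, differed by 0.15 and Smad3, of the TGF-beta pathway, by -0.55. The Tc9 array had more Il9 signal, less Spi1 signal and slightly more Etv5 signal than the Tc1 array. Any link among these 3 genes was not tested.

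The promoter windows are shown because ETS factors bind a GGAA core, and so that the windows of Il9 and of 3 of the genes above can be compared. RefSeq windows on GRCm38.p6 were on hand for 7 of the 10 genes, and Spi1, Ets1 and Fli1 were not among them. The 3 ETS gene windows printed below hold the most GGAA cores among the windows of these 7 genes, so they are not typical. Windows not printed include Etv6 with 3 cores, Spib and Ets2 with 1 each, and Elf1 with 2 and 0. Each sequence below holds the 250 bases before the annotated start, 5′ to 3′ on the gene's own strand, with GGAA and its reverse complement TTCC in capitals.
Il9, chr13:56482258-56482507, minus strand: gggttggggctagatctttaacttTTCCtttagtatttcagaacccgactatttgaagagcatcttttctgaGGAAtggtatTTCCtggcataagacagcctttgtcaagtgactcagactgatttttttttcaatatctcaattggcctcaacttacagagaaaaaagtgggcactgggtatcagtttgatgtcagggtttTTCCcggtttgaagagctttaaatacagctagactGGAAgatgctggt
Gabpa, chr16:84834874-84835123, plus strand: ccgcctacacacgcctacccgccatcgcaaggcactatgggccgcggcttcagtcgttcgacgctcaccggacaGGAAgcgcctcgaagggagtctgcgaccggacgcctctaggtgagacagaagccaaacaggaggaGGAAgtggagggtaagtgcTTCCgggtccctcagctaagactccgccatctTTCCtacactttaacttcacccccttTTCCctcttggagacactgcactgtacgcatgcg
Etv5, chr16:22438369-22438618, minus strand: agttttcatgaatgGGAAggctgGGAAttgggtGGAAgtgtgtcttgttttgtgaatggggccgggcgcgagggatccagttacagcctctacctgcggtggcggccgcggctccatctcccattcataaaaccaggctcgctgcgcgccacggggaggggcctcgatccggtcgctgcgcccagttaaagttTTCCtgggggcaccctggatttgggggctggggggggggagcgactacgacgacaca
Elf4, chrX:48463133-48463382, minus strand: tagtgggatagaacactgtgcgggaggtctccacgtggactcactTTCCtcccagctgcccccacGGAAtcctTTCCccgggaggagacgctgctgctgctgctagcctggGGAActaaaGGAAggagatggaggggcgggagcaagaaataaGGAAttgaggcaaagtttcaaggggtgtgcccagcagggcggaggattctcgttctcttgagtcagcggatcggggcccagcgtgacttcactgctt

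The Il9 window held 5 GGAA cores on either strand, the nearest starting 13 bases before the annotated start. Of these cores, 1 lies in GAGGAA, the PU box that PU.1 favours, which starts 180 bases before the start. The Gabpa window held 5 cores, of which 1 lies in GAGGAA and another, on the opposite strand, in CCGGAA, the form that ETS1 and GABPA favour. The window of the second annotated Etv5 start held 4 cores and neither longer form, and the first Etv5 window held none. The window of the first annotated Elf4 start held 6 cores, of which 1 lies in GAGGAA on the opposite strand, and the second Elf4 window, not printed, held 2 cores, of which 1 lies in that same longer form. GAGGAA and CCGGAA each contain GGAA, so these counts overlap.

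Such letters are common. Over 32851 RefSeq windows of the same length, 93.4% held GGAA on either strand, 23.3% held GAGGAA and 12.0% held CCGGAA. Of the 10 windows of the 7 ETS genes, 8 held GGAA, 3 held GAGGAA, in Elf4 and Gabpa, and 1 held CCGGAA, in Gabpa. A match is only a string of letters and not a bound site. Erg has 3 annotated starts, of which the first window held 0 GGAA cores, the second 4 and the third 2.

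Of the detectable genes known for ETS control in lymphocytes, 8 had lower signals in Tc9 cells and 4 had higher ones. Of 13 measured genes, 12 were detectable, 4 were lower by 2-fold or more and 0 were higher, with a median log2 difference of -0.28. Over the whole array, 4432 of 10147 detectable genes were lower. By 2-fold or more, 2.79% of detectable genes were lower and 2.62% were higher. Blk, among the 8 lower genes, lay below the 95th percentile of negative controls on both arrays. Tbx21, the T-bet gene, whose product works with Ets1 in type 1 T cells, had a signal of 90.7 in Tc9 cells, against 753 in Tc1 cells, 8.30-fold lower as measured. Its Tc9 signal lay below the 95th percentile of negative controls, as did those of Fcer1g and Prf1, and with the Tc9 value raised to that percentile Tbx21 was 5.27-fold lower. Fcer1g, a signalling adaptor of innate receptors, was 3.18-fold lower, or 2.74-fold with its Tc9 value raised likewise, and Cd5, a negative regulator of T cell receptor signalling, was 3.15-fold lower. The remaining gene of the 4 is Prf1, 2.35-fold lower with its Tc9 value raised. In the other direction, Cdkn1b, an inhibitor of the cell cycle, was 1.69-fold higher, and Il2ra and Zap70, the IL-2 receptor alpha chain and a T cell receptor kinase, had log2 differences of 0.36 and 0.56.

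**Figure D4:**
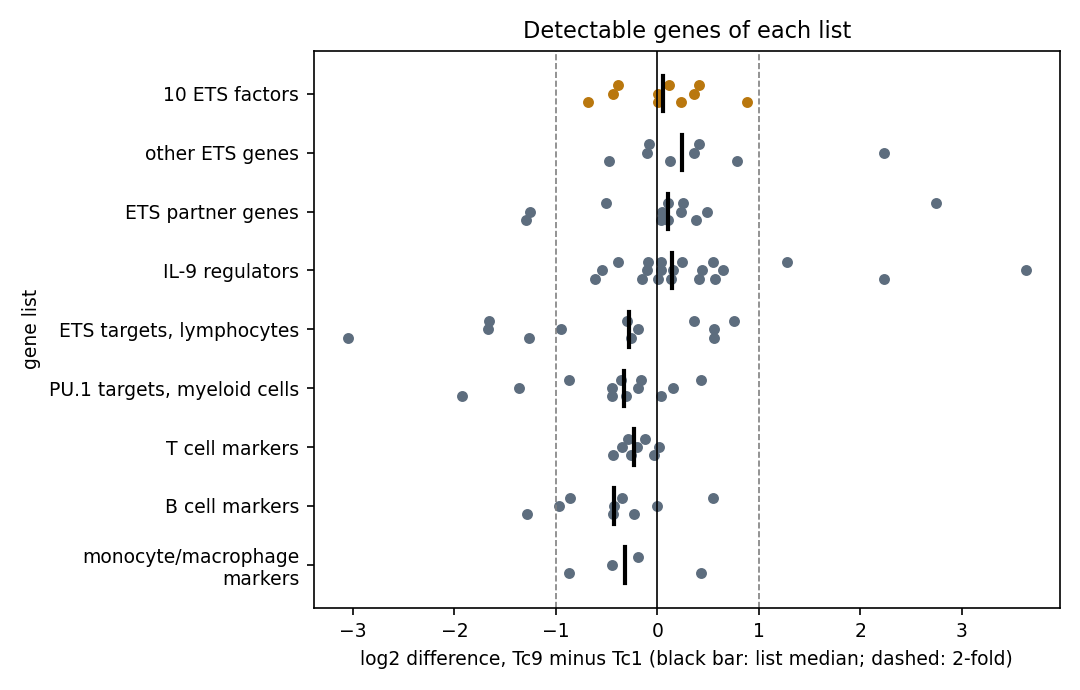
Log2 difference, Tc9 minus Tc1, of the detectable genes of each list, 1 point a gene, with black bars at list medians and dashed lines at 2-fold. The 10 ETS factors centre on 0.06 and stay inside the lines, whereas partner genes, IL-9 regulators and both target lists reach beyond them. The row of IL-9 regulators includes Il9 itself, at 3.63, toward whose product Tc9 cells were polarized. Genes on more than 1 list appear in each of their rows.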

How the data were processed

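Total RNA was labelled with biotin by a whole-transcript sense-target method, per the labels' protocols. The authors deposited linear intensity values per probe set. How probes were summarized, background corrected and normalized is not given in the sources used here. Values ran from 4.87 to 13045 on the Tc9 array and from 5.12 to 14977 on the Tc1 array, and log2 of the deposited intensity was used with no further normalization. Of 28846 probe sets, 19572 had 1 gene symbol in the platform annotation, 0 had several and 9274 had none. The 55 genes with several probe sets were read from the brighter one. Genes with 1 array below the threshold have folds given as "at least". The 95th percentile of negative controls was taken over 5222 probe sets on both arrays.

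The members and all gene lists were chosen with earlier results of these data known. All members are named. The rule named, from the partner, IL-9 and target lists, the detectable genes past 2-fold or otherwise up to 4 with the largest differences. It allowed any measured ETS gene and any detectable marker to be named, and only some markers are. Genes whose role pairs them with a member, the neighbours by position, macrophage genes outside the marker list, and markers below the threshold were named after their values were seen. Listed genes with no named probe set, such as Lck, were not analysed here. There was no test, since each group has 1 array, and the number of arrays limits the precision. The counting was tested on simulated data. Python 3.11.15 with NumPy 2.4.6 and pandas 2.3.3 was used.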

Additional observations from a re-analysis of the deposited data

How the results depend on the processing

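No paired analysis was possible because each group has 1 array. Signals were also centred on each array's median, quantile normalized, shifted by the 75th percentile, set at the threshold where dim, or given an offset of 50 before log2. Under these 5 alternatives no ETS factor of the 10 passed 2-fold. Ets1 ran from 0.81 to 0.95 and Spi1 from -0.76 to -0.61, and 8 of the 10 genes kept their sign, Ets2 and Fli1 being the exceptions. The median difference of the 10 ran from -0.02, with the 75th percentile shift, to 0.13, with median centring. With a threshold at the 95th percentile of negative controls, 9 of the 10 were detectable and their median was 0.11. The smaller 1.5-fold rule counted 1 of the 10 higher and 1 lower, and 791 and 688 of all detectable genes. The offset of 50 reduced the genes at least 2-fold higher to 164, by its construction, since it shrinks differences of low signals. Erg ran from 1.81 to 2.30. B cell markers at least 2-fold lower numbered 1, Fcrla, with 0 when dim values were set at the threshold, with the offset of 50 or with the negative control threshold, and 2, Cd79a being the second, after quantile normalization or the 75th percentile shift. In an alternative chosen after seeing the data, lower values were set at the 95th percentile of negative controls, which left 158 genes at least 2-fold higher and 172 lower by its construction, none of the 10 ETS factors past 2-fold, and Fcrla, Zbtb46, Itga2b and Ccl17 under it. In that alternative Spib had a difference of 0, since both its values lay below the percentile. Without replicates, spread between cultures is unknown.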
